A study of Mus musculus with 6 samples.

Results

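T cell receptor signalling genes are the set described here, 40 listed genes of 21887 protein-coding genes on chromosomes 1 to 19, X and Y. They were chosen by name, with earlier results of these data known. They were sorted into 7 signalling steps and into 20 T cell restricted, 6 blood cell wide and 14 ubiquitous genes. The mark measured was H3K4me3, trimethylation of lysine 4 on histone H3, which sits at the starts of active genes. The tested cells were CD8+ lymphocytes that had infiltrated e0771 tumours, a mammary tumour line of C57BL/6 mice, taken from C57BL/6 mice with a Cre-mediated deletion of Atg5 (KO) or from wild-type C57BL/6 mice (WT). Atg5 is needed to form autophagosomes. The labels state neither the promoter that drives Cre, nor the age of the mice, nor how many animals were pooled. Each genotype had 1 library, so every difference below lacks a replicate check and none was tested.

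When a T cell receptor meets its antigen, the kinase Lck phosphorylates the CD3 chains, Zap70 docks on them, and Zap70 phosphorylates the adaptors Lat and Lcp2. On that platform Plcg1 makes the second messengers that open the calcium, NF-kappaB and Ras routes, while phosphatases, ubiquitin ligases and diacylglycerol kinases switch the signal off. Some of these proteins are made almost only by T cells and their close relatives, whereas others, such as Grb2 and Sos1, serve receptors in most cells.

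The KO list held 46565 regions over 73.1 Mb and the WT list 48546 regions over 71.3 Mb, and neither list states the depth of its library. All 9 markers of CD8 T cells had a region within 1 kb of their 5′ end in the KO library, against 3 of 9 in the WT library, whose regions left Cd3e, Cd8a, Cd2, Thy1 and Bcl11b at 0 bp within 2.5 kb. The summed covered length of these 9 markers was 39368 bp in the KO library and 2957 bp in the WT library. The library labelled WT thus lacked regions near the 5′ ends of several defining genes of its labelled cell type. Over the whole genes the sums were 122221 bp in the KO library and 18600 bp in the WT library. Of the WT sum, Cd247 held 8110 bp and Bcl11b 6807 bp, while 3 of the 9 genes had none. Of 9 myeloid markers, 8 in the KO library and 9 in the WT library had a region, with sums of 14975 and 17468 bp, and Fcgr1 at 0 bp in the KO library. All 6 epithelial markers had a region in each library, with sums of 13155 bp in the KO library and 8832 bp in the WT library. Of 8 fibroblast and endothelial markers, 6 in the KO library and 5 in the WT library had one, with sums of 13709 and 17590 bp and Tie1 at 0 bp in both. Of 6 B cell markers, 2 in the KO library and 1 in the WT library had one, with sums of 4113 and 582 bp. Ms4a1, Cd79a and Pax5 were at 0 bp in both libraries, and Ebf1 was at 0 bp in the WT library. Of 4 NK cell markers, 1 had a region in each library, with sums of 750 bp in the KO library and 369 bp in the WT library, and Ncr1 and Klra8 were at 0 bp in both. These marker levels differ between the same libraries that every comparison below rests on, and their part in those comparisons was not tested. Fewer T cells in a sample and less H3K4me3 per T cell cannot be told apart here. At Atg5 itself 2705 bp were covered in the KO library and 2926 bp in the WT library, which does not check the labels because they do not say which part was deleted.

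The sequences of 6 starts are shown because they carry the contrast that the values below turn on, between starts with little or no WT coverage and starts covered in both libraries. They run from 250 bases upstream to 50 bases downstream of the RefSeq start (GRCm38.p6), 5′ to 3′ on the gene's own strand, and capitals mark each CG dinucleotide.
Lck upstream start, chr4:129573592-129573891, minus strand: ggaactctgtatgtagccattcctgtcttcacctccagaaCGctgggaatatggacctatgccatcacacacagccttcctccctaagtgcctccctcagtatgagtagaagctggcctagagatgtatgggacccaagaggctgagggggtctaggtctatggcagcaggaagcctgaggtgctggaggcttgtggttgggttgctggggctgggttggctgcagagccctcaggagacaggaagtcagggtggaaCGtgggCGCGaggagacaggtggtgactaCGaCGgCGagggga
Lck downstream start, chr4:129558323-129558622, minus strand: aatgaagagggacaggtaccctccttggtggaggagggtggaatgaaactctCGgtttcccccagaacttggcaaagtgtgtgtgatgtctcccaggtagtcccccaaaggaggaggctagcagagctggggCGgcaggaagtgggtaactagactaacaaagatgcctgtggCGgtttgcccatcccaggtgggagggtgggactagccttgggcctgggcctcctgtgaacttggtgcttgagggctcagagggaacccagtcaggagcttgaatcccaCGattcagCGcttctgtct
Zap70 first start, chr1:36761548-36761847, plus strand: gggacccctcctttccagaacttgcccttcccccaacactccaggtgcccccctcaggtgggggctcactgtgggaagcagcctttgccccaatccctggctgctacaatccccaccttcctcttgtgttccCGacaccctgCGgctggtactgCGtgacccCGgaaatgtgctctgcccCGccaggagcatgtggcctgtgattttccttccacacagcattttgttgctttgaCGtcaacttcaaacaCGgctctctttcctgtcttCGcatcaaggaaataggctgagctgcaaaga
Ubash3a, chr17:31207816-31208115, plus strand: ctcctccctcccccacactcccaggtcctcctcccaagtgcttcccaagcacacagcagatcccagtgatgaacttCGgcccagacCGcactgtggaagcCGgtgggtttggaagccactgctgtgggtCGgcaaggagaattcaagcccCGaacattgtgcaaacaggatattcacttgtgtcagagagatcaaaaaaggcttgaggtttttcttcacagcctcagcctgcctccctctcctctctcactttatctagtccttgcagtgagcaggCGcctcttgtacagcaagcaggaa
Bcl10, chr3:145924012-145924311, plus strand: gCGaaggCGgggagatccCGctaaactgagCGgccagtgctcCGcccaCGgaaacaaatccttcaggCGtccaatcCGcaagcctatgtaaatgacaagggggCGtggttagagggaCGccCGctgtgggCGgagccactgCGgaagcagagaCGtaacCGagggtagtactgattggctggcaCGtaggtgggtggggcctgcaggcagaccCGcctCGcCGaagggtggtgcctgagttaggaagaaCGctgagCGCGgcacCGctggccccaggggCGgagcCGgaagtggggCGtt
Sos1, chr17:80480404-80480703, minus strand: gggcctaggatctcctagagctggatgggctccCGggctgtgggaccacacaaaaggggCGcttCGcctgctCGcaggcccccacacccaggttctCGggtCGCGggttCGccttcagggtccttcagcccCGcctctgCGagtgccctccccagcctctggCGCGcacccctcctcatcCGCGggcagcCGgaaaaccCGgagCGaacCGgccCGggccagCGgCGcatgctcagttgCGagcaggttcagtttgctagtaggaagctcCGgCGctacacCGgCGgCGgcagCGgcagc

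Covered length means the bp under called regions within 2.5 kb of a 5′ end, at most 5001 bp. The upstream Lck, Zap70 and Ubash3a starts had 4953, 3315 and 4577 bp in the KO library, against 327, 0 and 0 bp in the WT library, and their 300 bases hold 7, 8 and 6 CG dinucleotides. The Bcl10 and Sos1 starts had 4269 and 4844 bp in the KO library, against 3944 and 4250 bp in the WT library, and hold 26 and 28. The downstream Lck start, with 4524 bp in the KO library and 1941 bp in the WT library, holds 5. The median over the 32851 starts in the RefSeq table was 7. These starts were chosen after their values were seen, and few CG dinucleotides were common among covered starts too. At the first start, 6 of 9 members marked in the KO library only held 7 or fewer, and so did 8 of 20 members marked in both, such as Lcp2 with 0, Dgka with 4 and Ubash3b with 5. A gene is called marked if a region lay within 1 kb of its 5′ end. The letters AGGAAG, the core bound by ETS factors, were sought on both strands and occur 3 times at the upstream Lck start and once each at the downstream Lck start, Zap70, Bcl10 and Sos1. They were not found in the Ubash3a window, and 35.4% of all RefSeq starts hold at least 1 match. TGTGGT, a core of RUNX sites, occurs once at the upstream Lck start and once at Sos1, against 16.8% of all starts with a match. RefSeq starts were matched for 30 of the 40 genes (75.0%), too few for a comparison of base composition over the set. Cd28, Icos, Cd226, Cd6, Pag1, Skap1, Sh2d2a, Sh2d1a, Malt1 and Sla had no entry, and for them the gene end with more covered length stood in, which may be the 3′ end. Because that choice used the coverage itself, it can favour the library with more coverage there.

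Across the set, covered length was longer in the KO library for 35 genes (30.7% of all protein-coding genes), shorter for 2 (34.4%) and equal for 3, with a median of 3453.5 bp in the KO library and 1400 bp in the WT library. It was longer by at least 1000 bp for 21 of the 40 genes, where 4.05% of all protein-coding genes passed that limit. None was shorter by that much, where 1.23% of all genes were. Nearest to the limit were Grb2 inside it, 1123 bp longer, and Sit1, Pag1 and Dgkz outside it, 976, 975 and 957 bp longer. In all, 13 members were marked in the KO library only (3.24% of all genes), 24 in both (57.9%) and 3 in neither, and none in the WT library only (1.66%). Over the 14385 genes with any coverage the median difference was −18 bp, and over the 40 members it was 1155.5 bp, KO minus WT.

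**Figure D1:**
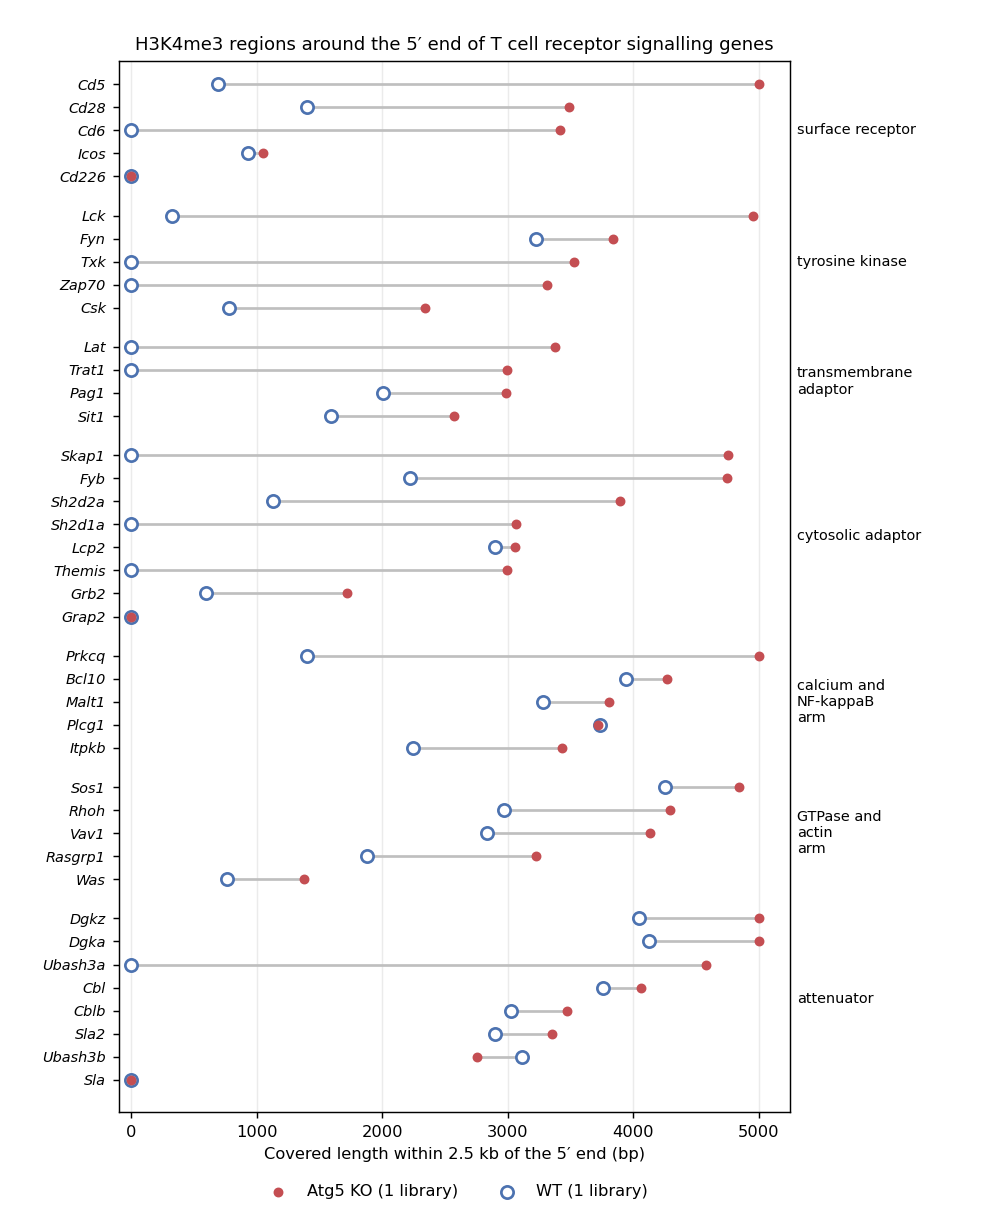
Covered length within 2.5 kb of the 5′ end (x axis, bp) of the 40 genes, grouped by signalling step. Filled red points are the KO library and open blue circles the WT library, 1 library each with no error bars; the KO points lie to the right for 35 genes, and the longest gaps are at Skap1 (4754 bp), Lck (4626 bp) and Ubash3a (4577 bp).

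The surface receptors split between genes with and without WT coverage. Cd5, a receptor that dampens signalling, was covered over the whole 5001 bp in the KO library, against 689 bp in the WT library, under a KO region of 7341 bp (chromosome 19, 10735194 to 10742534). Its relative Cd6 had 3414 bp in the KO library and 0 bp in the WT library, under a KO region of 4323 bp at the gene end (chromosome 19, 10826206 to 10830528) and a second, shorter one. Cd28, the main costimulatory receptor, had 3491 bp in the KO library and 1403 bp in the WT library. Icos, a costimulatory receptor that appears on activation, had 1053 bp in the KO library and 929 bp in the WT library. Cd226, an activating receptor shared with NK cells, had 0 bp at its gene end in both libraries, although its body was among the most covered of the set, as described below. Of these 5 genes, 3 were longer by at least 1000 bp.

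All 5 tyrosine kinases were longer in the KO library, 4 of them by at least 1000 bp. At Lck, whose product starts the cascade, the KO region spanned 9123 bp (chromosome 4, 129566971 to 129576093), and the only WT coverage within 2.5 kb was a region of 327 bp. Zap70 had 3315 bp in the KO library and 0 bp in the WT library, under a KO region of 7660 bp (chromosome 1, 36760984 to 36768643). Txk, a Tec family kinase, had 3527 bp in the KO library and 0 bp in the WT library, under a KO region of 4148 bp (chromosome 5, 72749656 to 72753803). The 3 T cell restricted kinases thus had between 0 and 327 bp in the WT library. Fyn, the Src family kinase that many tissues share, had 3835 bp in the KO library and 3227 bp in the WT library, with regions of 5846 bp (chromosome 10, 39368465 to 39374310) and 3227 bp (39368581 to 39371807). Csk, which holds Lck and Fyn in check, had 2337 bp in the KO library and 783 bp in the WT library at its first start.

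Among the transmembrane adaptors, which gather signalling proteins at the membrane, Lat and Trat1 had no WT coverage. Lat, the platform that Zap70 phosphorylates, had 3377 bp in the KO library and 0 bp in the WT library, under a KO region of 5194 bp (chromosome 7, 126365251 to 126370444) in a window that also overlaps Spns1. Trat1, which associates with the receptor complex, had 2992 bp in the KO library and 0 bp in the WT library, under a KO region of 3919 bp (chromosome 16, 48768635 to 48772553). Sit1, an adaptor that recruits the phosphatase SHP2, had 2569 bp in the KO library and 1593 bp in the WT library. Pag1, which brings Csk to the membrane, had 2984 bp in the KO library and 2009 bp in the WT library, with regions of 8754 bp (chromosome 3, 9825414 to 9834167) and 2009 bp (9831533 to 9833541).

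The 8 cytosolic adaptors had a median of 3062 bp in the KO library and 299 bp in the WT library, and 6 were longer by at least 1000 bp. Skap1, which helps to activate integrins, had the longest difference of the whole set, at a gene end chosen by its coverage. It had 4754 bp in the KO library and 0 bp in the WT library, under a KO region of 7476 bp (chromosome 11, 96462317 to 96469792). Sh2d1a, the adaptor SAP of the SLAM receptors, had 3067 bp in the KO library and 0 bp in the WT library, under a KO region of 6535 bp (chromosome X, 42501999 to 42508533). Themis, needed for thymocyte selection, had 2994 bp in the KO library and 0 bp in the WT library. Fyb, the partner of Skap1, had 4747 bp in the KO library and 2225 bp in the WT library. Sh2d2a, which binds Lck, had 3894 bp in the KO library and 1133 bp in the WT library. Lcp2, the adaptor SLP-76 that blood cells of several kinds use, had 3057 bp in the KO library and 2900 bp in the WT library. Grap2, which joins Lcp2 to Lat, had 0 bp in both at its RefSeq start. Grb2, found in nearly all cells, had 1721 bp in the KO library and 598 bp in the WT library at its first RefSeq start.

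In the calcium and NF-kappaB arm all 5 genes were marked in both libraries. Prkcq, the protein kinase C of the T cell synapse, was covered over 5001 bp in the KO library, against 1397 bp in the WT library, under regions of 12005 bp (chromosome 2, 11167983 to 11179987) and 1397 bp (11171785 to 11173181). The remaining 4 are ubiquitous genes. Itpkb, which converts the calcium messenger IP3, had 3432 bp in the KO library and 2244 bp in the WT library, with a KO region of 9174 bp (chromosome 1, 180330494 to 180339667), a second KO region upstream, and a WT region of 2244 bp (180330504 to 180332747). Bcl10 and Malt1, which work together downstream of Prkcq, had 4269 and 3809 bp in the KO library, against 3944 and 3280 bp in the WT library. Plcg1, the phospholipase at the branch point, was nearly the same, with 3720 bp in the KO library and 3737 bp in the WT library (regions of 6630 bp, chromosome 2, 160730091 to 160736720, and 3854 bp, 160730074 to 160733927).

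The GTPase and actin arm was marked in both libraries at all 5 genes, with differences between 594 and 1346 bp. Rasgrp1, the exchange factor that answers to diacylglycerol, had 3224 bp in the KO library and 1878 bp in the WT library, with a KO region of 6843 bp (chromosome 2, 117336758 to 117343600) and a WT region of 1498 bp (117341530 to 117343027) at the start and a second WT region downstream. Rhoh, a GTPase of blood cells, had 4290 bp in the KO library and 2970 bp in the WT library, with a KO region of 14843 bp (chromosome 5, 65862736 to 65877578), a second KO region upstream, and a WT region of 5286 bp (65863115 to 65868400). Vav1, the exchange factor for Rac, had 4136 bp in the KO library and 2834 bp in the WT library. Was, which drives actin branching, had 1380 bp in the KO library and 767 bp in the WT library. Sos1, the widely used Ras exchange factor, had 4844 bp in the KO library and 4250 bp in the WT library, under regions of 5715 bp (chromosome 17, 80478110 to 80483824) and 5331 bp (80478704 to 80484034).

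Of the 8 attenuators, 1 was longer by at least 1000 bp. Ubash3a, a phosphatase family member of T cells, had 4577 bp in the KO library and 0 bp in the WT library, under a KO region of 3513 bp at the start (chromosome 17, 31207224 to 31210736) and a second one upstream. Its broadly expressed relative Ubash3b, which removes phosphate from Zap70, went the other way, with 2757 bp in the KO library and 3111 bp in the WT library. Dgkz and Dgka, which remove diacylglycerol, filled the window with 5001 bp each in the KO library, against 4044 and 4125 bp in the WT library, and the Dgkz regions spanned 5522 bp (chromosome 2, 91960743 to 91966264) in the KO library and 4214 bp (91962020 to 91966233) in the WT library. The ubiquitin ligase genes Cbl and Cblb had 4064 and 3475 bp in the KO library, against 3761 and 3029 bp in the WT library. Sla2, an adaptor that lowers receptor levels, had 3351 bp in the KO library and 2896 bp in the WT library. Its relative Sla, which lies within the span of Tg, had 0 bp at both annotated gene ends in both libraries.

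Sorted by where the genes are used, the classes stood close together in the KO library and apart in the WT library. The median covered length of T cell restricted, blood cell wide and ubiquitous members was 3364, 3596.5 and 3764.5 bp in the KO library, against 0, 2529.5 and 3253.5 bp in the WT library. The highest WT value among the 20 T cell restricted genes was 2896 bp at Sla2, below the median of the ubiquitous genes, but the ranges overlapped, since ubiquitous Itpkb, Pag1, Csk and Grb2 had 2244, 2009, 783 and 598 bp. In the WT library 11 T cell restricted genes had no coverage, 2 of them (Cd226 and Grap2) also at 0 bp in the KO library. The same held for 1 blood cell wide gene (Sla, at 0 bp in both libraries) and none of the ubiquitous genes. Of all 21887 protein-coding genes, 8201 had no WT coverage. Of the T cell restricted genes 15 were longer in the KO library by at least 1000 bp, and Icos, Sit1, Sla2, Cd226 and Grap2 were not. Of the ubiquitous genes 3 were, namely Csk, Grb2 and Itpkb. Covered length stops at 5001 bp, so Sos1, Dgka and Dgkz, at 4250, 4125 and 4044 bp in the WT library, could not pass. The second count depends on the limit and the window. With a limit of 500 bp, 16 T cell restricted and 9 ubiquitous genes were longer (9.77% of all genes). With 2000 bp the counts were 14 and 0 (1.08%), within 1 kb 12 and 0 (1.72%), and within 5 kb 17 and 10 (7.17%). A start already well covered in the WT library has less room to be longer. With a limit of 2000 bp, ubiquitous Fyn, Malt1 and Plcg1, at 3227, 3280 and 3737 bp in the WT library, could not pass. Within 1 kb, ubiquitous Fyn, Plcg1, Bcl10, Sos1, Dgka, Dgkz and Cbl already had 2001 bp in the WT library, the most possible. All but 1 of the 13 genes marked in the KO library only were T cell restricted, and that 1 was Csk. The class medians of the difference were 3030.5, 957.5 and 601 bp, KO minus WT. The cap of 5001 bp bounds these differences too, and left more room at starts with no WT coverage. The classes rest on general knowledge of expression, but the members were chosen with earlier results of these data known. Genes are not replicates, so these values carry no test.

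**Figure D2:**
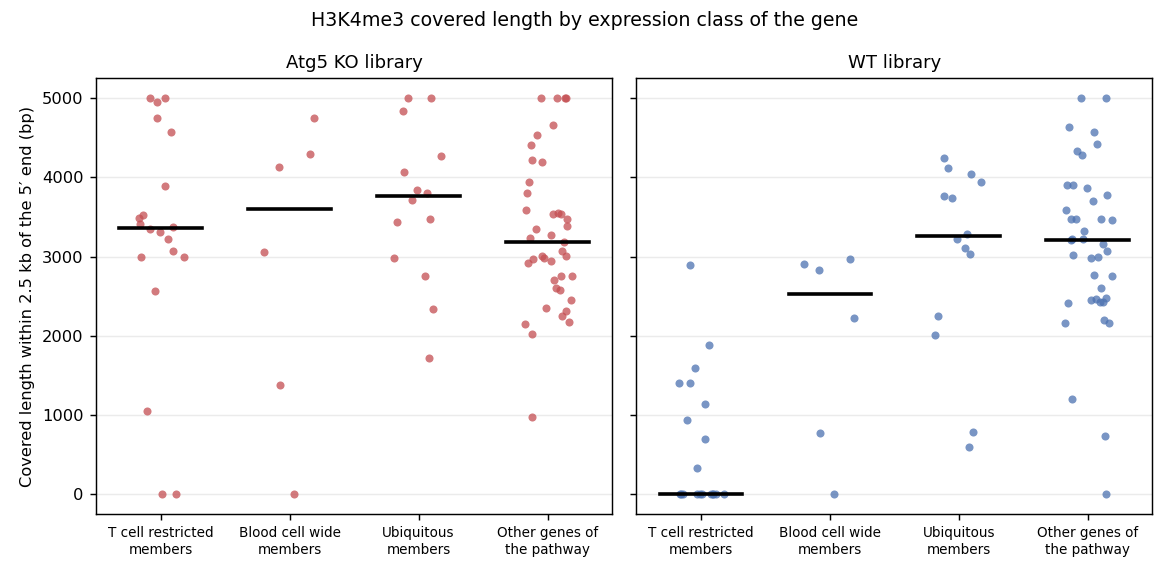
Covered length within 2.5 kb of the 5′ end (y axis, bp) in the KO library (left) and the WT library (right), 1 point per gene, for 20 T cell restricted, 6 blood cell wide and 14 ubiquitous members and 41 other genes of the pathway. Black bars are medians over genes; the bar of the T cell restricted genes is at 3364 bp in the KO library and 0 bp in the WT library, while that of the ubiquitous genes is at 3764.5 and 3253.5 bp.

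At some genes with more than one annotated start or end, the difference depended on which one was used. Mouse Lck has an upstream and a downstream promoter, of which the downstream one is known to work mainly in thymocytes and the upstream one also in mature T cells. The upstream start had 4953 bp in the KO library and 327 bp in the WT library. At the downstream start, 15269 bp further on, the KO library had 4524 bp and the WT library 1941 bp. Of the 3 ubiquitous genes past the limit, Csk and Grb2 had little WT coverage at the start used and differed less at another end. The second Csk start, 7978 bp downstream, had 4686 bp in the KO library and 4363 bp in the WT library, and the outer end of Grb2 in the gene table, 8669 bp upstream of the start used, had 3921 bp in the KO library and 3618 bp in the WT library. Zap70 was covered over 5001 bp in the KO library and 0 bp in the WT library at its second start, 2717 bp downstream, while its start 17186 bp downstream was at 0 bp in both. Ubash3b, which was shorter in the KO library at its first start, had 3156 bp in the KO library and 0 bp in the WT library at a start 78556 bp downstream. Fyb had 3154 bp in the KO library and 0 bp in the WT library at its outer end, 57051 bp upstream of the start used. The outer end of Grap2, 50886 bp upstream, had 3920 bp in the KO library and 2254 bp in the WT library, so its 0 bp above describe the RefSeq start alone.

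The KO regions were also wider. Regions were joined over gaps of up to 1 kb, and the joined domain at the start was measured for the 20 genes that had a RefSeq start and were marked in both libraries. Its median width was 6970.5 bp in the KO library and 3352 bp in the WT library, against 2672 and 2668 bp over all 10167 such genes. It was wider in the KO library by at least 1000 bp at 15 of the 20 genes (10.2% of all such genes). Downstream of the start, into the gene, the domain reached 5080.5 bp in the KO library and 2196 bp in the WT library (medians), and was longer by at least 1000 bp at 12 genes (7.42%). Upstream it reached 1321 bp in the KO library and 468 bp in the WT library (medians), and was longer by at least 1000 bp at 7 genes (3.0%). The median difference was 3000.5 bp downstream and 155 bp upstream, KO minus WT. The 11 ubiquitous genes among them showed the same order, with median widths of 6630 bp in the KO library and 3944 bp in the WT library.

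Single loci show the size of this extension. The Rhoh domain ran 14682 bp downstream in the KO library and 4816 bp in the WT library. At Fyb these lengths were 14137 bp in the KO library and 3027 bp in the WT library, while Prkcq and Cblb had 10265 and 9341 bp in the KO library, against 799 and 3204 bp in the WT library. Bcl10 and Sos1 hardly differed, with 2366 and 2343 bp in the KO library, against 1888 and 1749 bp in the WT library. Ubash3b was the 1 gene with a narrower KO domain, 2990 bp against 3112 bp in the WT library. The 9 genes with a RefSeq start that were marked in the KO library only had domains between 2964 and 15445 bp wide, the widest at Lck (chromosome 4, 129563296 to 129578740). WT regions covered 15.3% of that Lck domain, mostly at its upstream end, and 0 bp of the Zap70, Txk, Lat, Trat1, Themis and Ubash3a domains.

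**Figure D3:**
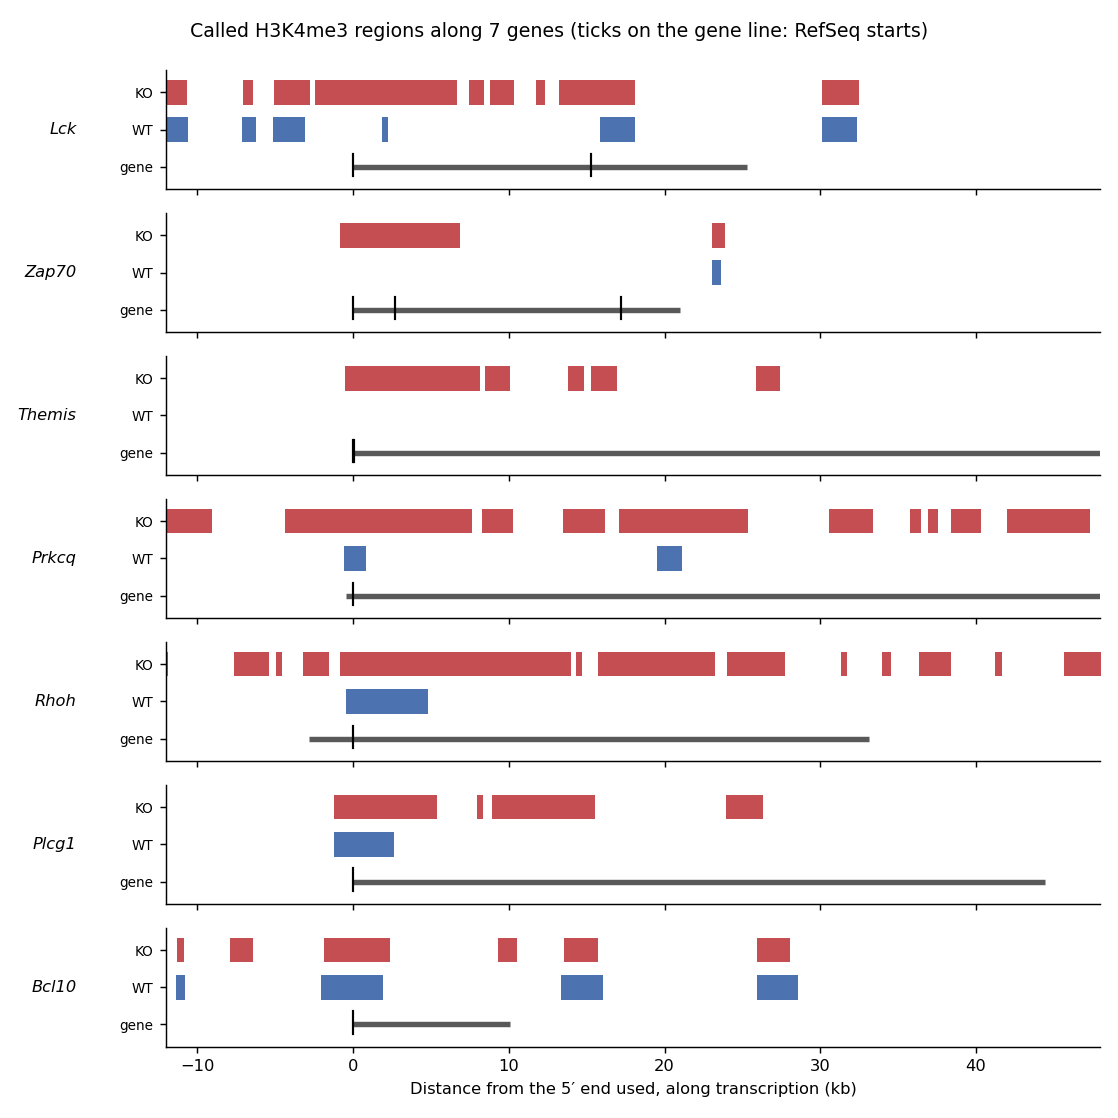
Called regions along 7 genes in the KO library (red, upper row) and the WT library (blue, lower row), by distance from the 5′ end used in the direction of transcription (x axis, kb), with the gene as a grey line and RefSeq starts as ticks. Themis has no WT region in view and Zap70 has one only beyond its far end, Prkcq, Rhoh and Plcg1 have shorter WT than KO regions at the start, and the Bcl10 start is covered over 4269 bp in the KO library and 3944 bp in the WT library.

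Inside the genes more ubiquitous members passed the limit of 1000 bp than at their starts. At the starts 12 of the 14 were longer in the KO library by any length (30.7% of all genes), and 3 by at least 1000 bp (4.05%). Over the whole gene body, all 40 genes had more covered bp in the KO library, where 34.6% of all protein-coding genes did. The difference was at least 1000 bp for 38 of them (10.6%), and no member was shorter by that much (6.99%). The summed covered length was 553886 bp in the KO library, or 19.6% of the summed gene length, and 158603 bp in the WT library, or 5.61%. The part of the gene beyond 2.5 kb of the 5′ end used was then measured alone. It still holds other annotated starts or ends of some members, such as those of Lck, Csk, Ubash3b and Dgkz. There 35 members were longer in the KO library by at least 1000 bp (8.67% of all genes) and none was shorter by that much (6.36%). Among genes marked in both libraries, 21 of 24 members were longer by that much, against 12.4% of all such genes. Long genes have more room for such regions, so the members marked in both libraries and at least 20 kb long were set beside all genes of that kind. All 20 of these members were longer in the KO library by at least 1000 bp, against 19.4% of the 6767 such genes, and none was shorter, against 12.1% by that much, and their medians were 11020.5 bp in the KO library and 2598 bp in the WT library.

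The inner values were largest at genes with many separate regions. Grap2 had 43587 bp inside the gene in the KO library and 5322 bp in the WT library, where its widest KO domain spanned 24611 bp (chromosome 15, 80571178 to 80595788). Fyb had 36726 bp in the KO library and 15197 bp in the WT library. Cd226, uncovered at its end, had 36370 bp in the KO library and 638 bp in the WT library, with a widest KO domain of 16046 bp. Prkcq had 31621 bp in the KO library and 2600 bp in the WT library. Sla, also uncovered at its ends, had 23608 bp in the KO library and 5980 bp in the WT library, with 20852 bp in 1 KO domain (chromosome 15, 66794947 to 66815798). These Sla regions lie within the span of Tg, and a region has no strand, so they cannot be given to one gene rather than the other.

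Among the ubiquitous genes 13 of 14 were longer inside the gene by at least 1000 bp, including genes that differed little at the start. Cblb had 28205 bp in the KO library and 7865 bp in the WT library inside the gene, beside a difference of 446 bp at its start. Itpkb, Fyn and Ubash3b had 25390, 19365 and 16671 bp in the KO library, against 9822, 6717 and 6359 bp in the WT library. Plcg1 had 12298 bp in the KO library and 117 bp in the WT library, beside a start that differed by 17 bp, and its widest KO domain of 7573 bp (chromosome 2, 160739278 to 160746850) met no WT region. Bcl10 had 780 bp in the KO library and 0 bp in the WT library. The 1 member with less inner coverage in the KO library was Ubash3a, with 2800 bp against 3718 bp in the WT library. Sit1 and Was, both short genes, had 0 bp there in either library.

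**Figure D4:**
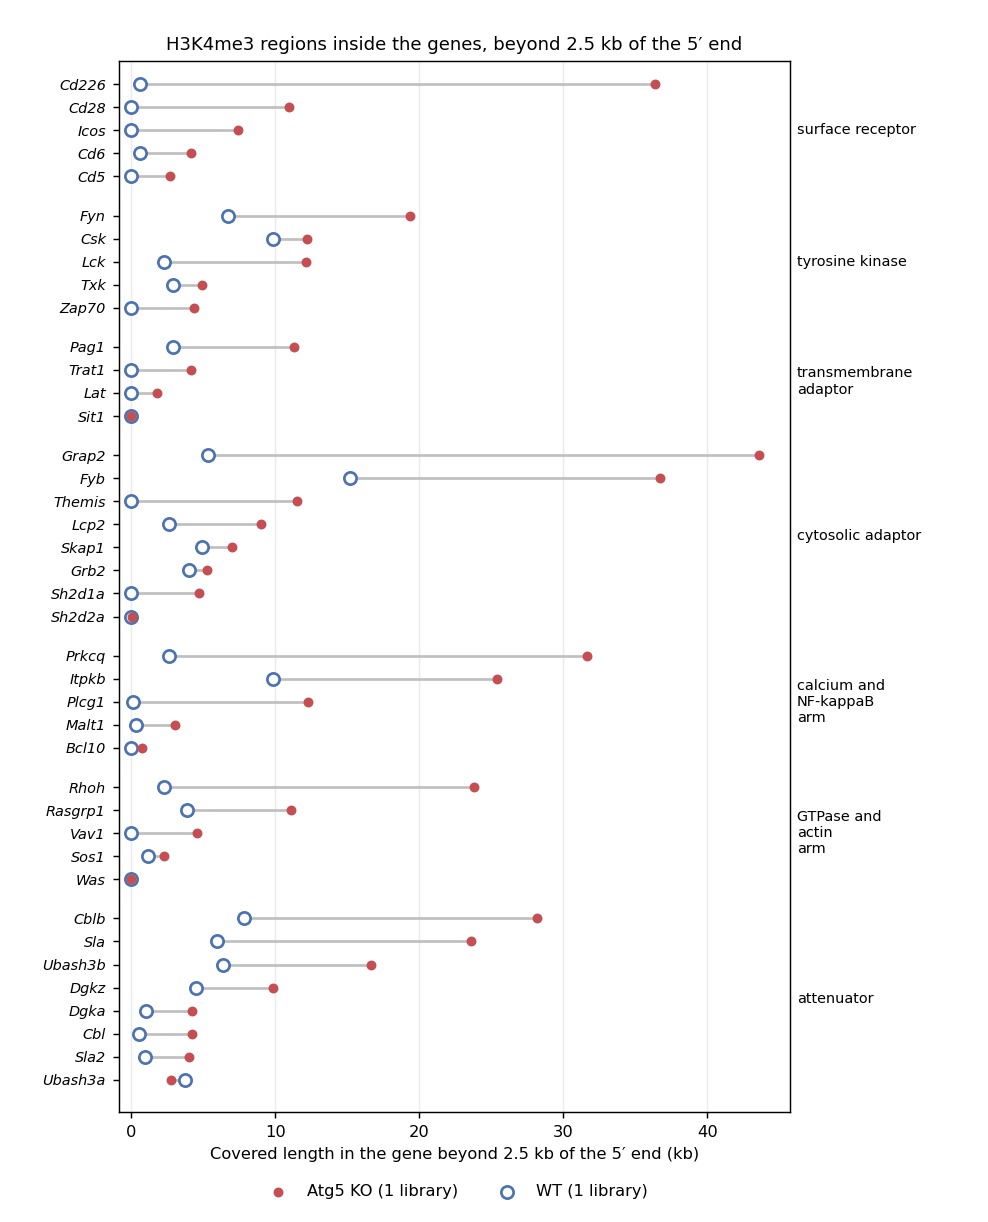
Covered length inside each gene beyond 2.5 kb of its 5′ end (x axis, kb) by signalling step. Filled red points are the KO library and open blue circles the WT library, 1 library each with no error bars; the KO point lies to the right for 37 of 40 genes, Ubash3a lies to the left, and Sit1 and Was are at 0 in both.

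Other genes of the same pathway differed less at their starts. They were not sorted into expression classes, so their class make-up was not matched to that of the members. A list of 41 further kinases, adaptors and calcium, NF-kappaB, Ras and PI3-kinase genes had a median covered length of 3190 bp in the KO library and 3209 bp in the WT library. Of these, 3 were longer in the KO library by at least 1000 bp and 2 were shorter, beside 4.05% and 1.23% of all genes. The longer ones included Tespa1, a calcium signalling protein of thymocytes, with 3011 bp in the KO library and 0 bp in the WT library, and the transcription factor gene Nfatc3, with 4413 bp in the KO library and 3209 bp in the WT library. The 2 shorter ones were the adaptor gene Gab2, with 2344 bp in the KO library and 3866 bp in the WT library, and Nfatc2, with 2023 and 3216 bp. All 8 Ras and MAP kinase genes were shorter in the KO library by some length, with differences between −707 and −11 bp. So were 34.4% of all genes, and 7532 of the 14385 genes with any coverage. Map2k1 had 2757 bp in the KO library and 3464 bp in the WT library, and Nras 2446 and 2749 bp. Beyond 2.5 kb of the 5′ end, 4 of the 8 were longer in the KO library (19.5% of all genes) and none was shorter. The PI3-kinase genes differed by at most 503 bp, with Inpp5d at 2918 bp in the KO library and 2415 bp in the WT library and Pdpk1 at 975 and 1203 bp. In the NF-kappaB group Ikbkb had 4217 bp in the KO library and 3900 bp in the WT library, and Ikbkg 2309 and 2471 bp. Ptpn6, the phosphatase SHP-1, had 3190 bp in the KO library and 2201 bp in the WT library. Inside the gene, 17 of the 41 were longer in the KO library by at least 1000 bp and 3 were shorter, beside 8.67% and 6.36% of all genes.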

How the data were processed

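Chromatin digested with micrococcal nuclease was precipitated with an H3K4me3 antibody and sequenced, per the labels, which gave 1 peak list per genotype. Per the submitters' processing notes, MACS2 and GRCm38 (mm10) were used. Version, settings, aligner and read filters: not given in the sources used here. The deposited fold is a ratio of summit reads to local background, and the deposited −log10 p and −log10 q belong to the same summit. The lowest −log10 q was 2.02 in the KO list and 2.0 in the WT list. The authors' score is −log10 q times 10 and was not used. Folds were not compared between lists. The depth is unknown, and the length of a region depends on depth and threshold. Regions on other sequences (64 KO, 65 WT) were left out. Samples of H3K27me3 and input were not used here.

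5′ ends came from RefSeq promoter starts (GRCm38.p6, most upstream start), and otherwise from the gene end with more covered length, ties going to the lower coordinate. This use of the promoter table was settled after the table was seen. All members were named. Regions were given in full for the 2 members of each step with the largest difference and the 1 with the smallest, and for others chosen after their values were seen. From the other pathway list the 2 largest differences per subgroup were named, except 1 gene that is not reported here. Starts whose sequence is shown, and genes named for their inner coverage or reach, were also chosen after their values were seen. The members and lists were chosen with earlier results of these data known. Coverage code was tested on simulated regions (Python 3.11.15, NumPy 2.4.6, pandas 2.3.3, Matplotlib 3.10.9).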

Additional observations from a re-analysis of the deposited data

How the results depend on the processing

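The 5 counts were recomputed with other windows, thresholds and gene ends. Within 1 kb, 12 members and 0 ubiquitous members were longer in the KO library by at least 1000 bp (1.72% of all genes). Within 5 kb, 10 ubiquitous members were (7.17%). With 20000 regions kept per list, 24 members were marked in the KO library only (5.44% of all genes). The ubiquitous count was 9 with a limit of 500 bp (9.77% of all genes) and 0 with a limit of 2000 bp (1.08%). With the better covered gene end, or the outer gene end (added after seeing the data), 1 member, Ubash3b, was shorter by at least 1000 bp. Of all genes, 1.38% and 1.25% were shorter by that much. Over the gene body 38 members and 14 ubiquitous members were longer by at least 1000 bp (10.6%), and 6 members were covered in the KO library only (2.44%). Covered length cannot exceed the window, so ubiquitous starts covered in full within 1 kb in the WT library, such as Fyn and Plcg1, could not be longer there. Any other cause of these shifts was not tested. The T cell restricted count ran from 12 to 19 of 20 over the settings that kept every member. Among the 30 members with a RefSeq start, 16 were longer in the KO library by at least 1000 bp (4.05% of genes with such a start). In that subset 9 were marked in the KO library only (3.16%), and 10 of 13 T cell restricted members were longer by at least 1000 bp. Of 168 recomputed differences of the 21 members past the limit, 166 stayed longer in the KO library, 2 were 0 bp and none was shorter. Those 21 members were picked for being longer in the same lists, so this count is no independent check. Members not past the limit were left out of it. No paired analysis was possible because each genotype has 1 library. A region that is not called may lie below the detection limit of a library of unknown depth.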
